A study of Mus musculus with 15 samples.

Results

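The genes described here encode the proteins that copy DNA and the cyclin E and Cdk2 proteins that admit a cell to S phase. They are a fixed list of gene names, drawn up with earlier results of these data known. Each was matched to a probe set (the array's group of probes for a transcript) that carries exactly 1 gene symbol, and 44 of 44 were measured, of 19297 genes in all. Pcna and Tk1 had 2 such probe sets each, of which the brighter over the 15 arrays was kept.

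Replication starts where the origin recognition complex sits on DNA. In G1 the licensing factors Cdc6 and Cdt1 load the ring of MCM proteins there, and geminin (Gmnn) blocks Cdt1 later in the cycle. Cyclin E with Cdk2 then helps Cdc45 and the GINS complex to turn the ring into a working helicase, after which primase, the polymerases, the sliding clamp and the ligase copy both strands. Many of these genes are transcribed under E2F factors, so their RNA rises together as cells leave G1 and is low in resting cells.

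All arrays came from Myc-CaP cells, a line grown from a prostate tumour of a mouse with a Myc transgene, so every group carries the Myc-driven background. The cells held the vector without an insert (VEC), Twist1 in its wild-type form (WT), or the AQA, DQD or F191G form, with 3 arrays per group. Twist1, a transcription factor of the basic helix-loop-helix family, ends in the Twist box, whose mutation the series concerns. Per the labels the cells were transfected, selected, grown to confluence and harvested. The labels do not say what residues AQA and DQD stand for, what promoter drove Twist1, whether a group was a pool or a clone, or whether the replicates A, B and C were separate cultures. The p-values thus speak only of the spread from array to array, which may be technical. Values are deposited log2 values, levels are means ± SD with n = 3 arrays, and differences are on the log2 scale with their standard error (SE). A gene is called changed at a limma adjusted p under 0.05, with the adjustment over all 19297 genes. Counts at an unadjusted p under 0.05 are not to be set against shares of all genes called, which rest on the adjusted p. Levels of different genes cannot be set against each other, because each rests on its own probes.

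WT replicate A stood apart. Its median correlation with the other arrays was 0.9821, against at least 0.9938 for each of the other 14, and the main values for WT are given below with and without it. The labels give 2 batches, A with 8 arrays and B with 7, and each group has arrays in both. The Twist1 probe set read 6.43 ± 0.29 in VEC and 6.79 ± 0.06 in WT, a difference of 0.36 that was not called (limma adjusted p = 0.129, and 0.37 with 0.234 without WT replicate A), so it does not check the labels. Of the luminal prostate markers, Krt8 read 8.20 ± 0.66 and Hoxb13 7.20 ± 0.24 in VEC, while Krt18, Epcam and Cdh1 read 5.89 ± 0.14, 5.09 ± 0.06 and 5.66 ± 0.05. No detection calls were used, so these levels do not show whether those 3 genes were expressed. By limma 0 of 24 measured markers of luminal, basal, fibroblast, endothelial and haematopoietic cells were called between WT and VEC, and 2 had an unadjusted p under 0.05 (0 and 3 without WT replicate A).

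Promoter sequences are shown because the members moved together on the arrays. RefSeq's promoter table for GRCm38.p6 held 40 promoters of 35 members, and motifs were searched on both strands in the 250 bases before the transcription start. The E2F letters TTTCGCGC or TTTGGCGC (GCGCGAAA or GCGCCAAA on the other strand) stood in 6 of the 40, or 15%, against 0.654% of all 32851 promoters. The 6 genes were Cdc25a, Mcm5, Mcm6, Orc1, Pola1 and Rfc3. These windows run 5′ to 3′ on the gene's strand, with the E2F letters in capitals.

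Mcm6 (chr1:128359789-128359830, minus strand): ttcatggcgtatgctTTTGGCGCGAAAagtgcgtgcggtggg
Mcm6 (chr1:128359730-128359767, minus strand): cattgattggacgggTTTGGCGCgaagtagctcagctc
Orc1 (chr4:108579412-108579449, plus strand): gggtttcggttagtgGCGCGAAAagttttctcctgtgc
Rfc3 (chr5:151651209-151651233, minus strand): agtgacgtcgcacgcTTTCGCGCtc
Mcm5 (chr8:75109341-75109382, plus strand): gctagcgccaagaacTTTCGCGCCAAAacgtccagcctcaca
Cdc25a (chr9:109875497-109875534, plus strand): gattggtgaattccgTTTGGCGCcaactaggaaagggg
Pola1 (chrX:93632271-93632308, minus strand): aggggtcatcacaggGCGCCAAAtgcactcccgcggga

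In Mcm5, and in the first Mcm6 window, a match on each strand overlaps the other. The letters CCAAT or ATTGG, the CCAAT box, were found in 23 of the 40 promoters (57.5%, against 33.8% of all). The E-box CACGTG, which Myc is known to bind, was in 5 (12.5%, against 6.02%), in Chaf1a, Fen1, Pola2, Rpa1 and Tyms. The E-box letters CATATG or CATCTG (on the other strand CAGATG), of the kind that Twist1 is known to bind, were in 3 (7.5%, against 17.3%), in Orc2, Prim1 and Rfc4. A match is a description of the letters and not a bound site, and no match speaks only of this window.

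Array values are given below for 12 members, and the next 4 promoters belong to those of the 12 with an entry and the smallest p in WT against VEC. They show up to 120 bases before the start. Capitals mark CCAAT boxes in Orc6 and Rpa2 and the CACGTG of Tyms, and the Cdt1 bases hold none of the letters searched. In Orc6, 6 bases that lie in the neighbouring gene Vps35 were left out.

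Orc6 (chr8:85299518-85299631, plus strand): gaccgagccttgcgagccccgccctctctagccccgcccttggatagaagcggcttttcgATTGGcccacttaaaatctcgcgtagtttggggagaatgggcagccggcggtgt
Cdt1 (chr8:122567895-122568014, plus strand): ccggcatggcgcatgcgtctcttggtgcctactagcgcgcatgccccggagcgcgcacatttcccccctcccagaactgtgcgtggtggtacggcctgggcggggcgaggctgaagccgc
Rpa2 (chr4:132768240-132768359, plus strand): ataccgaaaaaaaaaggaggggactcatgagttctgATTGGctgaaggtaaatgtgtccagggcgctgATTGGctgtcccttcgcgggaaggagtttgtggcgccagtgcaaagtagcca
Tyms (chr5:30073626-30073745, minus strand): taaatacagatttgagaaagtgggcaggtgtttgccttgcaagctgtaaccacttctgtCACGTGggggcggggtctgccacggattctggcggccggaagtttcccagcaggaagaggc

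With wild-type Twist1 the replication genes read lower as a whole group. Of the 44 members 31 were called lower and 0 higher against the vector, where 5.72% of all genes were called lower. The median difference was -0.92, or 1.89-fold lower, against a median of -0.01 over all genes. Estimates ran from -1.33 for Prim1 to -0.35 for Rpa1, so all 44 were below 0. On every one of the 44 genes the 3 WT arrays lay below the 3 VEC arrays, an order that 16.4% of all genes showed. In bulk RNA, fewer cells in S phase and less RNA of these genes per cell cannot be told apart.

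Much of the size came from WT replicate A, on which all 44 genes read lower than on the other 14 arrays (18.4% of all genes did). It lay below the mean of WT replicates B and C by a median of 1.07, from 0.26 for Rpa1 to 1.77 for Gins1. Those 2 replicates differed from each other by a median of 0.08 and at most 0.26 (Rrm2). They also lay below all 3 VEC arrays on 44 of 44 genes, as they did for 22.6% of all genes. Leaving replicate A out, the median difference was -0.49, or 1.40-fold lower, the range was -0.74 (Prim1) to -0.22 (Cdc25a), and 12 members were called lower (1.69% of all genes). These 12 were Orc6, Cdt1, Mcm2, Mcm4, Cdc45, Gins2, Gins4, Rpa2, Tyms, Chaf1b, Ccne2 and Cdk2.

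**Figure D1:**
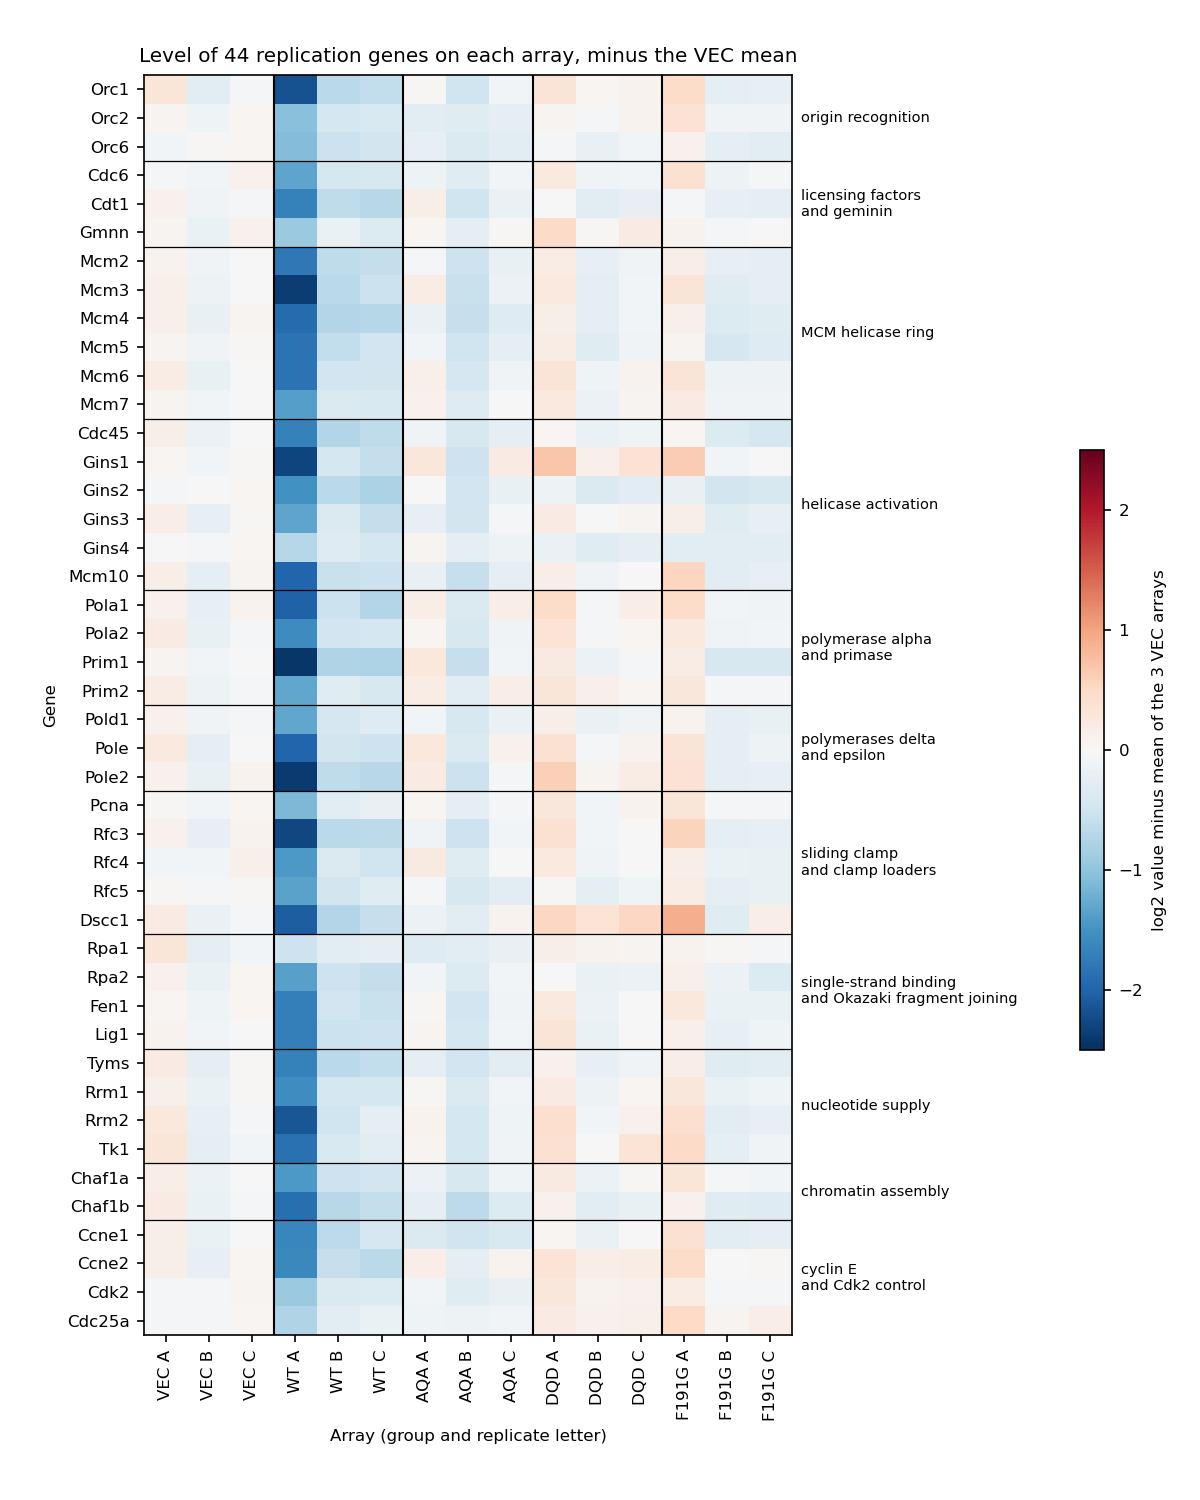
Log2 value of each of the 44 genes (rows, in order of role) on each of the 15 arrays (columns, by group and replicate letter), minus the mean of the 3 VEC arrays, as a colour from blue (lower) to red (higher). WT replicate A is the darkest column, with all 44 genes below the VEC mean, and WT replicates B and C are below it on all 44 genes, with means of -0.511 and -0.500.

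The count of calls also depended on the vector arrays. It was 3 without VEC replicate A (Orc6, Gins2 and Gins4), where 2.5% of all genes were called lower, and 16 without VEC replicate B (3.73%). It was 0 by limma without VEC replicate C (0.212%). In that fit 40 members, and 3861 of the 19297 genes, had an unadjusted p under 0.05. The members' count thus moved with the count over all genes. Arrays of the other groups enter through the shared spread. The count was 20 without AQA replicate A, 16 without AQA replicate C, 15 without DQD replicate C and 18 without F191G replicate C. In these fits 4.13% to 4.6% of all genes were called lower. Over all fits without an array of another group it was 4.13% to 6.27%, and the members' counts of the remaining fits are not listed here. Within batch A (2 WT and 2 VEC arrays) the median was -1.10, and limma called 0 members (34 had an unadjusted p under 0.05). With 1 array of each in batch B it was -0.52. The fit there had 7 members past the threshold (0.415% of all genes), but its spread came only from the DQD and F191G pairs, so it does not measure the spread of WT or VEC.

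The members are described next by role, with array values in the order A, B and C. Without WT replicate A, 3816 of the 19297 genes had an unadjusted p under 0.05 in WT against VEC. All 3 origin recognition genes fell, with 1 still called when WT replicate A was left out. Orc6, the smallest subunit, read 9.51, 9.61 and 9.62 in VEC and 8.49, 9.05 and 9.13 in WT. It read 9.38, 9.21 and 9.31 in AQA, 9.53, 9.39 and 9.51 in DQD, and 9.68, 9.35 and 9.29 in F191G. Every WT array lay below the other 12. Orc6 fell by 0.69 (SE 0.143, limma adjusted p = 0.0126), and by 0.48 (adjusted p = 0.0233) without replicate A. Orc1, which binds ATP in the complex, fell by 1.15 and Orc2 by 0.62, with differences of -0.61 (limma adjusted p = 0.10) and -0.41 (adjusted p = 0.0611) once that array was left out.

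Of the licensing genes, Cdt1 and Cdc6 fell and geminin was not called. Cdt1, the loader of the MCM ring, read 10.53, 10.34 and 10.39 in VEC and 8.74, 9.79 and 9.72 in WT. In the mutant forms it read 10.56, 9.92 and 10.26 (AQA), 10.42, 10.13 and 10.21 (DQD), and 10.39, 10.22 and 10.19 (F191G). The WT arrays were again below all others, with AQA replicate B nearest to them. Cdt1 fell by 1.002 (SE 0.230, limma adjusted p = 0.0174), and by 0.65 (adjusted p = 0.0271) with replicates B and C alone. Cdc6, its partner in loading, fell by 0.72, with -0.41 (adjusted p = 0.104) from those 2 arrays. Gmnn, the inhibitor of Cdt1, differed by -0.49 (SE 0.169, limma adjusted p = 0.0749), and by -0.25 (adjusted p = 0.29) without replicate A.

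The 6 subunits of the MCM helicase ring had a median difference of -0.995 (-0.55 without WT replicate A), and 3 of them were called. Mcm4 read 10.36, 10.04 and 10.29 in VEC and 8.30, 9.49 and 9.51 in WT. It read 10.07, 9.66 and 9.91 in AQA, 10.37, 10.01 and 10.16 in DQD, and 10.36, 9.88 and 9.92 in F191G. No WT array overlapped another group. Mcm4 fell by 1.13 (SE 0.263, limma adjusted p = 0.0185), Mcm2 by 1.01 and Mcm5 by 0.98. Mcm3 differed by -1.19 but with a wider SE of 0.377 (adjusted p = 0.0546), and Mcm6 and Mcm7 by -0.93 (adjusted p = 0.0598) and -0.71 (adjusted p = 0.0504). Without replicate A, Mcm4 fell by 0.71 and Mcm2 by 0.60 and both remained called, while Mcm5 differed by -0.53 (limma adjusted p = 0.0675). Mcm3, Mcm6 and Mcm7 then differed by -0.58, -0.44 and -0.36 (limma adjusted p = 0.117, 0.149 and 0.127).

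Cdc45, the 4 GINS subunits and Mcm10 convert the loaded ring into an active helicase. Of these 6 genes 4 fell, and 3 of them also without WT replicate A. Gins2 had the smallest p of all 44 members, with 9.07, 9.14 and 9.17 in VEC and 7.61, 8.45 and 8.34 in WT. Its values were 9.11, 8.64 and 8.94 in AQA, 8.99, 8.77 and 8.84 in DQD, and 8.95, 8.66 and 8.72 in F191G. The WT arrays were lowest, and the DQD and F191G arrays lay between WT and VEC with no overlap on either side. Gins2 fell by 0.99 (SE 0.182, limma adjusted p = 0.00872), and by 0.715 (adjusted p = 0.0108) without replicate A.

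Gins4 read 10.18, 10.14 and 10.22 in VEC and 9.46, 9.86 and 9.74 in WT. In AQA it was 10.24, 9.94 and 10.06, in DQD 10.01, 9.88 and 9.93, and in F191G 9.91, 9.90 and 9.90. The WT arrays lay below all others, narrowly so for replicate B, and DQD and F191G lay below every VEC array. Gins4 fell by 0.50 (SE 0.097, limma adjusted p = 0.0104), and by 0.38 (adjusted p = 0.0282) without replicate A. Cdc45 fell by 1.02 and Gins3 by 0.77, the first also called without that array (-0.66, adjusted p = 0.0183) and the second not (-0.47, adjusted p = 0.0917). Gins1 differed by -1.11 with an SE of 0.393 (adjusted p = 0.081), and Mcm10 by -1.03 (adjusted p = 0.0546). Without replicate A these 2 differed by -0.49 and -0.525 (limma adjusted p = 0.252 and 0.151).

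Polymerase alpha and primase lay down the first stretch of each new strand, and 3 of these 4 genes fell. Prim1, the catalytic primase subunit, read 9.29, 9.16 and 9.24 in VEC and 6.79, 8.48 and 8.45 in WT. It read 9.50, 8.65 and 9.16 in AQA, 9.46, 9.08 and 9.19 in DQD, and 9.42, 8.82 and 8.83 in F191G. WT replicate A stood 2.44 below the VEC mean and the other 2 WT arrays 0.77 below it on average, all under every other array. Prim1 fell by 1.33 (SE 0.367, limma adjusted p = 0.0343), Pola1 by 1.09 and Pola2 by 0.83, and Prim2 differed by -0.67 (adjusted p = 0.0633). Without replicate A no gene of this role was called by limma, all 4 had an unadjusted p under 0.05, and Prim1 differed by -0.74 (adjusted p = 0.0576). Pola1, Pola2 and Prim2 then differed by -0.60, -0.44 and -0.33 (limma adjusted p = 0.0913, 0.107 and 0.206).

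Of the genes of the leading and lagging strand polymerases, Pold1 and Pole2 fell. Pold1, the catalytic subunit of polymerase delta, read 8.63, 8.44 and 8.49 in VEC and 7.23, 8.10 and 8.19 in WT. Its values were 8.45, 8.12 and 8.36 in AQA, 8.67, 8.36 and 8.44 in DQD, and 8.60, 8.30 and 8.33 in F191G. AQA replicate B lay between WT replicates B and C, and the other mutant arrays above WT. Pold1 fell by 0.68 (SE 0.201, limma adjusted p = 0.0444) and Pole2, a subunit of polymerase epsilon, by 1.24 (adjusted p = 0.048). Pole itself differed by -0.98 (adjusted p = 0.0681). By limma 0 of the 3 were called without replicate A, with all 3 at an unadjusted p under 0.05. Pold1, Pole2 and Pole then differed by -0.36, -0.64 and -0.45 (limma adjusted p = 0.0992, 0.102 and 0.196).

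The sliding clamp Pcna holds the polymerase on DNA, and the replication factor C subunits and Dscc1 belong to the complexes that load it. The 4 loader genes were called and Pcna was not. Rfc3 read 8.96, 8.65 and 8.93 in VEC and 6.57, 8.17 and 8.20 in WT. In the mutant forms it read 8.76, 8.32 and 8.77 (AQA), 9.23, 8.77 and 8.86 (DQD), and 9.40, 8.63 and 8.64 (F191G). WT was below all others, with AQA replicate B next. Rfc3 fell by 1.20 (SE 0.356, limma adjusted p = 0.0445), Dscc1 by 1.13, Rfc4 by 0.76 and Rfc5 by 0.70. Pcna differed by -0.53 (SE 0.197, adjusted p = 0.0943), with means of 11.70 and 11.16 in VEC and WT on the kept probe set and 11.69 and 11.16 on the other. By limma none of the 5 was called without replicate A and 4 had an unadjusted p under 0.05. Rfc3, Dscc1, Rfc4 and Rfc5 then differed by -0.63, -0.64, -0.41 and -0.36 (limma adjusted p = 0.0999, 0.147, 0.131 and 0.112), and Pcna by -0.22 (adjusted p = 0.322).

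Rpa1 and Rpa2 coat single-stranded DNA, Fen1 trims the Okazaki fragments of the lagging strand and Lig1 joins them. Rpa2 read 8.97, 8.68 and 8.91 in VEC and 7.49, 8.33 and 8.25 in WT. It read 8.79, 8.51 and 8.78 in AQA, 8.85, 8.68 and 8.70 in DQD, and 8.99, 8.70 and 8.51 in F191G. The WT arrays lay below the rest. Rpa2 fell by 0.83 (SE 0.191, limma adjusted p = 0.0176), and by 0.55 (adjusted p = 0.0342) without replicate A. Lig1 fell by 0.93 and Fen1 by 0.92, with -0.52 (limma adjusted p = 0.0621) and -0.50 (adjusted p = 0.081) once that array was left out. Rpa1 had the smallest difference of the 44, at -0.35 (limma adjusted p = 0.0606), and -0.26 (adjusted p = 0.236) without replicate A.

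Tyms, Rrm1, Rrm2 and Tk1 make the building blocks of DNA, and the first 2 of them fell. Tyms, which makes thymidylate, read 9.91, 9.46 and 9.73 in VEC and 8.01, 9.03 and 9.08 in WT. It read 9.47, 9.22 and 9.43 in AQA, 9.80, 9.49 and 9.62 in DQD, and 9.86, 9.40 and 9.43 in F191G. No other group overlapped WT, and the AQA arrays lay below the DQD arrays. Tyms fell by 0.996 (SE 0.237, limma adjusted p = 0.0198), and by 0.63 (adjusted p = 0.0325) without replicate A. Rrm1, the large subunit of ribonucleotide reductase, fell by 0.81, with -0.42 (adjusted p = 0.108) without that array. Rrm2, the small subunit, and the salvage kinase gene Tk1 had the largest adjusted p of the members, with differences of -0.97 (SE 0.382, limma adjusted p = 0.115) and -0.84 (SE 0.343, adjusted p = 0.127). From WT replicates B and C they differed by -0.35 (adjusted p = 0.388) and -0.30 (adjusted p = 0.454).

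Chaf1a and Chaf1b, subunits of the assembly factor that puts histones on new DNA, both fell. Chaf1b read 9.93, 9.56 and 9.70 in VEC and 7.85, 9.03 and 9.13 in WT. Its values were 9.50, 9.08 and 9.39 in AQA, 9.83, 9.45 and 9.55 in DQD, and 9.83, 9.43 and 9.40 in F191G. All AQA arrays lay below all VEC arrays, an order shown by 7 of the 44 members and 3130 of the 19297 genes. AQA replicate B lay between WT replicates B and C. Chaf1b fell by 1.06 (SE 0.270, limma adjusted p = 0.0257), and by 0.63 (adjusted p = 0.0369) without replicate A. Chaf1a fell by 0.81, and differed by -0.48 (adjusted p = 0.0536) without it.

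Of the genes that start S phase Ccne1, Ccne2 and Cdk2 fell, and Cdc25a, the phosphatase that activates Cdk2, was not called. Ccne2 read 8.40, 8.05 and 8.30 in VEC and 6.64, 7.68 and 7.58 in WT. It read 8.42, 8.03 and 8.34 in AQA, 8.59, 8.42 and 8.44 in DQD, and 8.71, 8.26 and 8.27 in F191G. Every DQD array was above every VEC array, an order shown by 5 of the 44 members and 2469 of the 19297 genes. Every WT array was below all others, as on 30 members and 1084 genes. Ccne2 fell by 0.95 (SE 0.228, limma adjusted p = 0.0205) and Cdk2 by 0.55 (SE 0.134, adjusted p = 0.0225), and without replicate A by 0.60 (adjusted p = 0.0359) and 0.35 (adjusted p = 0.0485). Ccne1 fell by 0.90, with -0.52 (limma adjusted p = 0.0826) without that array, and Cdc25a differed by -0.40 (adjusted p = 0.063), or -0.22 (adjusted p = 0.246) without it.

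**Figure D2:**
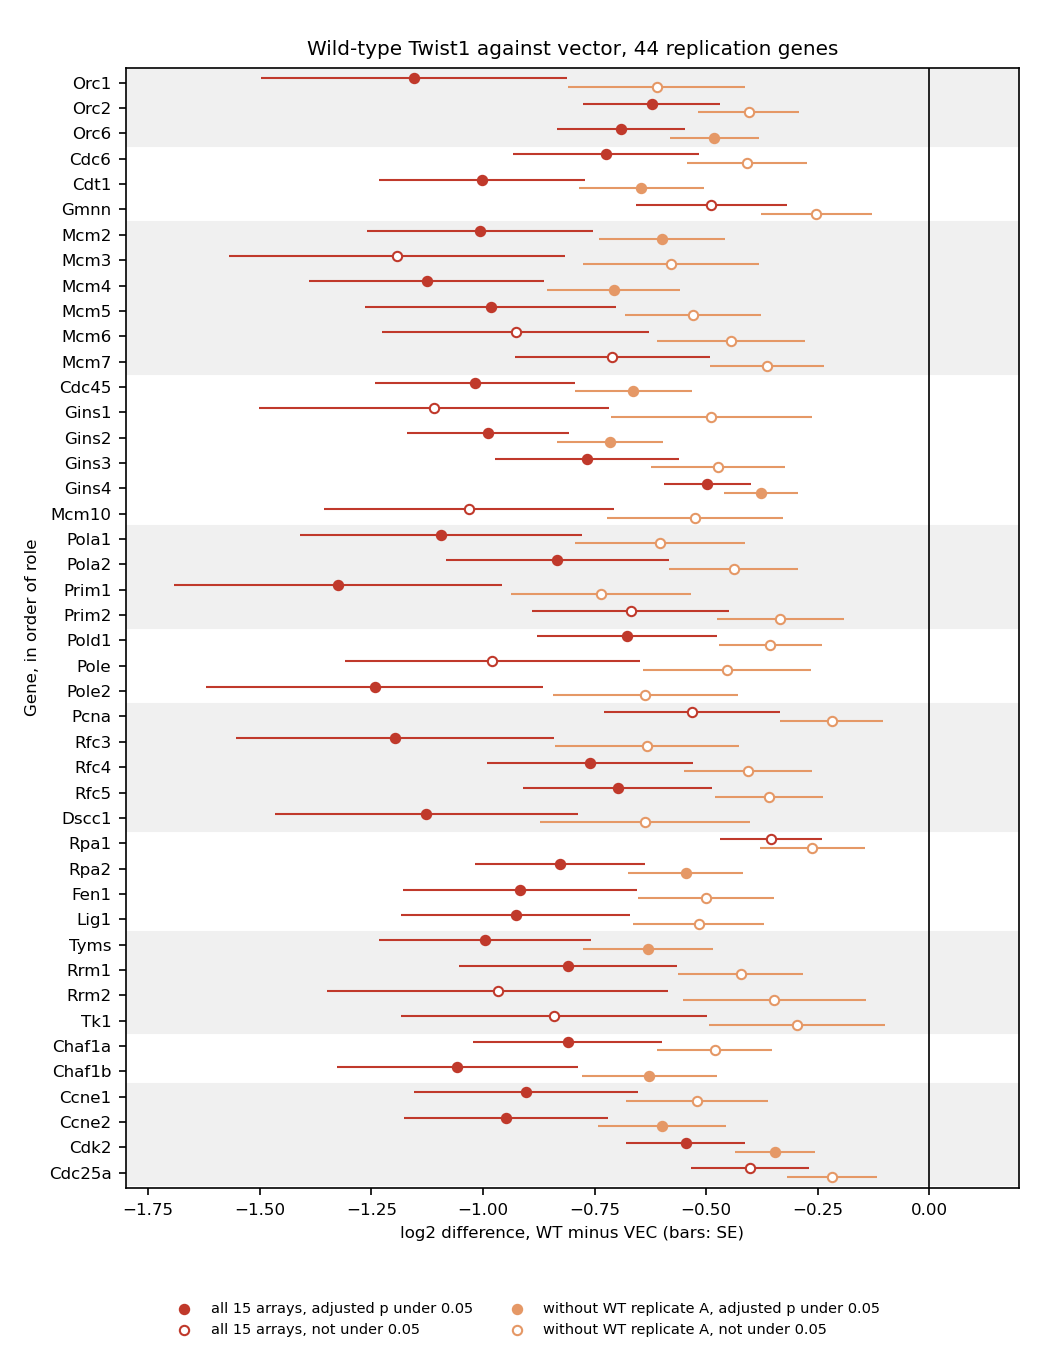
Log2 difference between WT and VEC (x axis) for each of the 44 genes (y axis, in order of role), with its SE as a bar, from all 15 arrays (red) and without WT replicate A (orange). Filled points have a limma adjusted p under 0.05, 31 in red and 12 in orange, and all points of both colours lie below 0.

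The other 3 forms of Twist1 were not called against the vector on any of the 44 genes. By limma 0 members were called in AQA (0.881% of all genes in either direction), 0 in DQD (0.814%) and 0 in F191G (0.0985%), and 1 member in each had an unadjusted p under 0.05. The median differences were -0.17, 0.04 and -0.02, against -0.04, -0.05 and -0.03 over all genes. These 3 comparisons share the VEC arrays, as WT against VEC does. In AQA 41 of the 44 estimates were below 0, from -0.42 for Ccne1 to 0.02 for Prim2. In DQD 15 were below 0, from -0.26 for Gins2 to 0.45 for Dscc1, and in F191G 24, from -0.35 for Gins2 to 0.26 for Dscc1. On AQA replicates A, B and C 22, 44 and 37 members read below their VEC mean, as did 11558, 10929 and 11769 of the 19297 genes.

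The precision of these 3 comparisons leaves room for changes of some size. The 95% intervals of single members reached down to -1.03 in AQA, -0.86 in DQD and -1.02 in F191G, and up to 0.84, 1.27 and 1.07. The members at an unadjusted p under 0.05 were Rpa1 in AQA (-0.25, limma adjusted p = 0.308) and Gins4 in both DQD (-0.24, interval -0.46 to -0.03, adjusted p = 0.166) and F191G (-0.27, interval -0.49 to -0.06, adjusted p = 0.32). For Ccne2 the intervals were -0.48 to 0.51 in AQA, -0.27 to 0.74 in DQD and -0.34 to 0.67 in F191G. In batch A alone the medians were 0.24 for DQD and 0.25 for F191G, each from 1 array of that form, and in batch B -0.07 and -0.19. Without F191G replicate A the F191G median was -0.26.

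**Figure D3:**
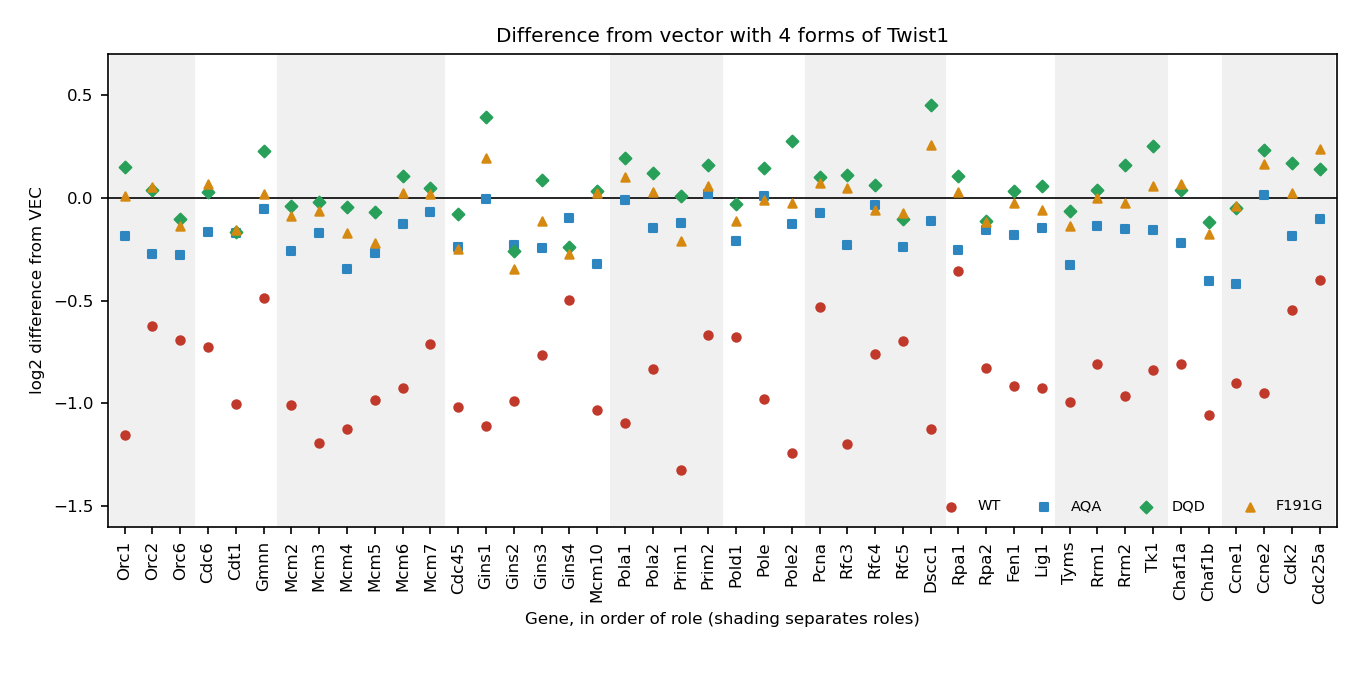
Log2 difference from VEC (y axis) of each of the 44 genes (x axis, in order of role, shading separates roles) for WT, AQA, DQD and F191G, each estimated from all 15 arrays. The WT points are the lowest for all 44 genes, from -1.33 to -0.35, and the points of the other 3 forms lie between -0.42 and 0.45.

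The mutant forms were also set directly against wild-type Twist1, in 3 comparisons that share the WT arrays. In DQD 41 of 44 members were called higher, where 11.8% of all genes were, with a median difference of 0.92. The members not called were Gins4, Rfc5 and Rrm2 (0.26, 0.59 and 1.13, limma adjusted p = 0.0738, 0.0613 and 0.0521), and without WT replicate A these differed by 0.15, 0.29 and 0.57 (adjusted p = 0.246, 0.127 and 0.0848). All 44 had all DQD arrays above all WT arrays, as 20.2% of all genes did. Leaving out WT replicate A gave 33 called (5.51% of all genes) and a median of 0.56. Leaving out DQD replicate A gave 0 called by limma (0% of all genes), and 37 had an unadjusted p under 0.05.

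Among single members Dscc1, of a clamp loader, was 1.58 higher in DQD than in WT (SE 0.347, limma adjusted p = 0.0139), and 1.14 higher without WT replicate A (adjusted p = 0.0168). Ccne2 was 1.18 higher (SE 0.233, adjusted p = 0.0112) and Cdk2 0.71 higher (SE 0.138, adjusted p = 0.0107). Both were called without WT replicate A, at 0.87 and 0.53 (adjusted p = 0.012 for each). In all 3 genes the lowest DQD array lay above the highest WT array. Within batch A, with 1 DQD and 2 WT arrays, the median of the members was 1.26. In batch B, with 2 DQD arrays and 1 WT array, it was 0.45. The fit there had 8 members past the threshold (0.845% of all genes), but its spread came only from the DQD and F191G pairs, so it does not measure the spread of WT. Of the 24 cell type markers 7 were called lower in DQD than in WT: 3 of 7 fibroblast, 2 of 5 haematopoietic, 1 of 5 luminal and 1 of 4 endothelial genes. Over all genes 12.7% were called lower in DQD than in WT when the probe sets of each gene were averaged. Without WT replicate A 3 markers were called lower, as were 5.46% of all genes. Leaving out each array in turn, 0% to 14.2% of all genes were called lower in this comparison. The mean of the fibroblast markers was 5.55 to 5.72 on the DQD arrays and 5.76 to 5.87 on the WT arrays, and that of the haematopoietic markers 4.71 to 4.84 and 4.89 to 4.92. These marker means all lie below the array medians, which ran from 6.306 to 6.42. The part of the markers in the result was not tested.

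In F191G 11 members were called higher than in WT, against 3.18% of all genes, and the median difference was 0.86. These were Orc2, Orc6, Cdc6, Cdt1, Pola1, Dscc1, Rpa2, Chaf1a, Ccne2, Cdk2 and Cdc25a. On 43 of the 44 genes, all but Rrm2, every F191G array lay above every WT array (15% of all genes). Without WT replicate A only Ccne2 and Cdc25a were called (0.212% of all genes), at 0.80 (limma adjusted p = 0.0318) and 0.47 (adjusted p = 0.0492), and the median was 0.49. The count moved between 0, without F191G replicate A (18 members at an unadjusted p under 0.05) or C (43 members), and 39, without WT replicate B (7.92% of all genes). Leaving out VEC replicate A or B gave 7 (2.16% and 2.11% of all genes), and VEC replicate C or DQD replicate B 4 (1.62% and 1.44%). The count was 2 without AQA replicate A or C, DQD replicate A or C, or F191G replicate B (0.259% to 1.1%). Without WT replicate C it was 38 (5.11% of all genes). Within batch A, with 1 F191G and 2 WT arrays, the median of the members was 1.27. Within batch B, with 2 F191G arrays and 1 WT array, it was 0.33.

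In AQA no member was called against WT. By limma 0 were called higher (0.306% of all genes were), 39 had an unadjusted p under 0.05, and the median difference was 0.70. On 30 of the 44 genes all AQA arrays lay above all WT arrays (11.7% of all genes). The smallest adjusted p was 0.0548, for Gins2, Gins4 and Ccne2 at 0.76, 0.40 and 0.96, and Rpa1 differed least, by 0.10. Without WT replicate A the median was 0.30, 17 members had an unadjusted p under 0.05, and 0 were called by limma (0% of all genes). The count rose to 27 without WT replicate B (6.61% of all genes) and to 4 without AQA replicate B (3.62%). Within batch A, with 2 arrays of each form, the median was 0.85, and within batch B, with 1 array of each, it was 0.38.

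The order of the group means was alike for most of the 44 genes. WT was the lowest group on 44 of 44, also without its replicate A, and AQA was the next lowest on 36. The highest mean belonged to DQD on 25, VEC on 15 and F191G on 4. WT replicates B and C alone lay below all 12 arrays without wild-type Twist1 on 30 of 44 genes, as they did for 6.1% of all genes. The neighbours VEC, DQD, F191G and AQA did not separate in this order beyond their spread: the mean of the members relative to VEC was 0.112, -0.134 and 0.022 on the VEC arrays, 0.230, -0.090 and 0.028 on DQD, 0.260, -0.192 and -0.160 on F191G, and -0.010, -0.405 and -0.105 on AQA. On WT it was -1.612, -0.511 and -0.500, and AQA replicate B came nearest to WT replicates B and C.

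Within the groups the members also moved together from array to array. F191G replicate A was the highest of its group on all 44 genes, DQD replicate A on 42, AQA replicate A on 36 and VEC replicate A on 34, whereas WT replicate A was the lowest on 44. Replicate B was the lowest of its group on 43 genes in AQA, 42 in DQD, 39 in VEC and 32 in F191G. Over all genes these shares lay between 29.1% and 39.3%. All these A arrays belong to batch A, and the B arrays of DQD and F191G to batch B.

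**Figure D4:**
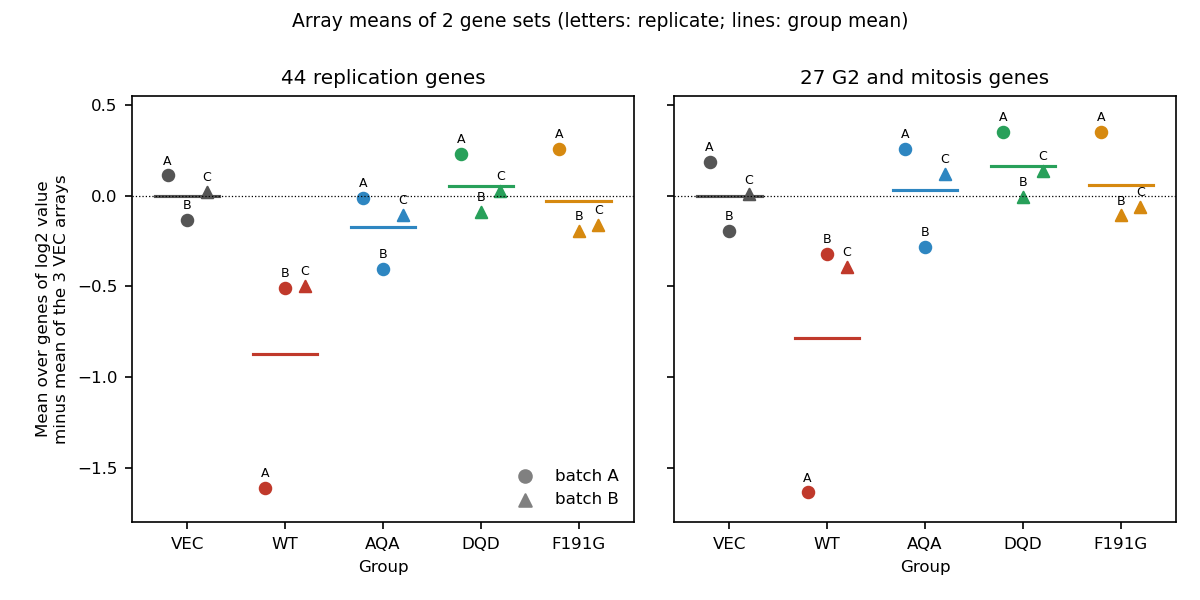
Mean over genes of the log2 value minus the mean of the 3 VEC arrays (y axis) on each array, by group (x axis), for the 44 replication genes (left) and 27 genes of G2 and mitosis (right). Circles are batch A, triangles batch B, letters the replicate and lines the group means. WT replicate A lies lowest in both panels, at -1.612 and -1.637.

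Genes of the same pathways that are not members were described from 5 lists. Their counts in WT against VEC stand beside the 5.72% of all genes called lower. With the probe sets of each gene averaged, 7.05% of all genes were called higher. Of 29 other replisome and origin genes 17 were called lower and 1 higher in WT against VEC, with a median of -0.62. The smallest p belonged to Mcmbp, which binds MCM proteins (-0.43, limma adjusted p = 0.0104), Pole3, a small polymerase epsilon subunit (-0.50, adjusted p = 0.0118), and the nuclease and helicase gene Dna2 (-1.08, adjusted p = 0.0145). All 3 remained called without WT replicate A, at -0.33, -0.37 and -0.715. The gene that rose, named after its value was seen, was Pold4, a small subunit of polymerase delta (0.30, limma adjusted p = 0.0174). It differed by 0.31 without WT replicate A (adjusted p = 0.0508).

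Of 11 other nucleotide synthesis genes 5 fell and 0 rose, with a median of -0.31. Dctpp1, which clears modified nucleotides, fell by 0.61 (limma adjusted p = 0.00818), Umps, of pyrimidine synthesis, by 1.13, and Gart, of purine synthesis, by 0.31. With WT replicate A left out they differed by -0.465, -0.70 and -0.23 (limma adjusted p = 0.0174, 0.0307 and 0.0743). Of 9 genes of histone supply and chromatin maintenance 4 fell, with a median of -0.74. Among them Slbp, which binds histone mRNA, fell by 0.74 (adjusted p = 0.0192), Usp1, which removes ubiquitin from Pcna, by 0.72 and Uhrf1, which helps copy DNA methylation, by 1.09. These 3 differed by -0.475, -0.41 and -0.58 without that array (limma adjusted p = 0.0338, 0.0723 and 0.0778). Without WT replicate A 5 replisome, 2 nucleotide synthesis and 1 histone supply genes were called lower (1.69% of all genes). The medians of these lists were then -0.35, -0.18 and -0.41.

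The regulators of G1 did not move as one group. Of 28 genes 6 fell and 2 rose, with a median of -0.11 (-0.06 without WT replicate A). Over all genes 5.72% were called lower, and 0.451% to 8.45% were called higher when each array was left out in turn. With the probe sets of each gene averaged, 5.69% of all genes were called lower and 7.05% higher. Tfdp2, an E2F partner, rose by 0.51 (limma adjusted p = 0.011), and the pocket protein gene Rbl2, a repressor of E2F targets in resting cells, rose by 0.785 (adjusted p = 0.0123). Tfdp1, another E2F partner, fell by 0.38 (adjusted p = 0.0126). These 3 and Skp2, of a ubiquitin ligase that acts on cell cycle inhibitors, were called without WT replicate A, at 0.40, 0.60, -0.31 and -0.48. The other genes that fell, named after their values were seen, were E2f4, E2f1, E2f7 and E2f2 (by 0.35, 0.78, 0.81 and 0.59), and none of these 4 was called without that array (limma adjusted p = 0.0606, 0.0949, 0.121 and 0.152). The array's Myc probe set read 9.86 ± 0.27 in VEC and 10.23 ± 0.07 in WT, a difference of 0.37 (limma adjusted p = 0.124). Without that array the difference was 0.35 (adjusted p = 0.273). Whether this probe set also reads the Myc transgene is not known here.

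Genes of G2 and mitosis lay lower on the same WT array. Their mean relative to VEC was -1.637, -0.320 and -0.391 on WT, 0.186, -0.192 and 0.007 on VEC, 0.259, -0.282 and 0.119 on AQA, 0.353, -0.005 and 0.136 on DQD, and 0.354, -0.109 and -0.064 on F191G. Of 27 genes 3 were called lower in WT (5.72% of all genes), namely Nek2, Birc5 and Cdk1 (by 1.08, 1.11 and 0.80). The median was -0.75, and 26 had an unadjusted p under 0.05. Without WT replicate A the median was -0.30, 0 were called by limma and 11 had an unadjusted p under 0.05. Over all genes 3816 of 19297 had such a p in that fit. Nek2, Birc5 and Cdk1 then differed by -0.59, -0.60 and -0.42 (limma adjusted p = 0.11, 0.0992 and 0.106). Their part in the result on the replication genes was not tested.

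Single vector and WT arrays weighed on these lists too, as they did on all genes. Without VEC replicate C limma called 0 genes of the 5 lists lower, and 23, 8, 7, 10 and 16 read lower at an unadjusted p under 0.05 in the replisome, nucleotide, histone, G1 and mitosis lists. In that fit 1903 of the 19297 genes read lower at an unadjusted p under 0.05. Over all genes the share called lower was 0.212% in that fit, against 5.72% from all 15 arrays. Without VEC replicate A 4, 1, 0, 3 and 0 were called lower (2.5% of all genes) and without VEC replicate B 8, 3, 2, 4 and 1 (3.73%). Leaving out WT replicate B gave 23, 7, 7, 11 and 24 (8.45% of all genes), and leaving out WT replicate C 21, 8, 7, 11 and 16 (7.19%). Leaving out an array of another group gave 10 to 18, 3 to 7, 2 to 4, 3 to 7 and 0 to 3, with 4.13% to 6.27% of all genes called lower. Against VEC 0 of the 104 listed genes were called by limma in AQA, DQD or F191G, and 12, 6 and 7 had an unadjusted p under 0.05. Without WT replicate A, which enters through the shared spread, 3, 1 and 0 by limma were called in these comparisons (9 of F191G at an unadjusted p under 0.05). In these fits 0.922%, 1.78% and 0.0985% of all genes were called lower and 1.32%, 1.41% and 0.119% higher. In DQD against WT 24, 9, 6, 12 and 19 genes of the lists were called higher (11.8% of all genes) and 0, 0, 0, 4 and 0 lower. In F191G against WT 11, 1, 1, 1 and 0 were called higher (3.18% of all genes) and 1, 0, 0, 2 and 0 lower. With the probe sets of each gene averaged, 12.7% of all genes were called lower in DQD and 3.84% in F191G against WT. In AQA against WT 0 of 104 were called by limma (0.306% of all genes were called higher), and 75 had an unadjusted p under 0.05. Without WT replicate A, 47 listed genes were called higher and 1 lower in DQD against WT (5.51% and 5.46% of all genes). In F191G against WT these counts were 1 and 1 (0.212% and 0.565%).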

How the data were processed

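Total RNA of 15 samples was hybridised to single-colour arrays. The deposited log2 values of 23811 probe sets were made by the authors with RMA and examined with limma, per the submitters' processing notes, which state no versions. Per the design text, samples were also scaled to Twist1 in a way it does not describe, and this may have altered the values. Per the platform annotation 20852 probe sets carry 1 symbol, 1440 several and 1519 are not listed. The brightest probe set per symbol gave 19297 genes, with no filter on dim ones.

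Group and batch were fitted as fixed terms to all 15 arrays with limma 3.58.1 (R 4.3.3, moderated variances, 9 residual and 3.93 prior degrees of freedom), with Benjamini-Hochberg adjustment over 19297 genes in each of 7 comparisons. The fit was tested on simulated data. The members, roles and lists were chosen with earlier results of these data known. Array values are given for the 3 members with the smallest p in WT against VEC and the member with the smallest p in each of 11 roles. From each list up to 3 genes with the smallest p are named. Some list genes, such as Rrm2b, Impdh2 and Ccnb1, were not analysed here. Promoters were read from RefSeq's table, and figures drawn with matplotlib 3.10.9. The number of arrays limits the precision. There were 28 alternatives, and a few of them change 2 settings together, such as the replicate block without the batch term.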

Additional observations from a re-analysis of the deposited data

How the results depend on the processing

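All 28 alternatives kept the 12 members with array values lower in WT than in VEC (336 of 336 estimates), and in 241 of the 336 the call was kept. The median of all members in WT against VEC stayed between -1.16 and -0.485. Leaving out each array in turn gave 0 to 42 members called in WT against VEC (0.212% to 8.45% of all genes called lower). It gave 0 to 27 in AQA against WT (0% to 6.61% of all genes called higher). In DQD against WT it gave 0 to 44 (0% to 13.5%) and in F191G against WT 0 to 39 (0% to 7.92%). The median in F191G against VEC then ran from -0.255 to 0.063. In WT against VEC the count was 16 with a variance trend and robust moderation (5.29% of all genes called lower). By limma it was 0 with only the 6 arrays compared (0.00518%) or with the Twist1 value as a covariate (0.0311%). In each of these fits 38 members had an unadjusted p under 0.05. It was also 0 by limma in batch A (0%), with 34 at an unadjusted p under 0.05. The AQA against WT count was 7 with no batch term (3.61% of all genes called higher) and 2 after quantile normalization (1.09%). It was 3 without the dimmest 33.3% of genes (3.03% of those kept) and 27 with array weights (7.08% of all genes). In DQD against WT it was 0 by limma with only the arrays compared (30 at an unadjusted p under 0.05) or in batch A (38), and 8 in batch B, where WT has 1 array and the median was 0.450. In F191G against WT the count was 35 with no batch term (7.44% of all genes called higher) and 20 with median centring (5.92%). It was 24 without the dimmest genes (7.87% of those kept), 6 with trend and robust moderation (2.75%) and 2 with the Twist1 covariate (0.85%). Limma called 0 with only the arrays compared (0%), where 14 had an unadjusted p under 0.05. The median in batch B was 0.327. Batch A alone gave medians of 0.238 for DQD and 0.246 for F191G against VEC. Fits on fewer arrays have fewer degrees of freedom, but the cause of the changed counts was not tested for any setting.

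The replicate letters are shared by all groups. In the comparisons with VEC or WT, deviations of same-lettered arrays correlated between -0.85 and 0.126. Pairs among AQA, DQD and F191G were not tested, so these values do not settle whether the letters mark a pairing. Replicate A was the highest of its group on 34 members in VEC, 36 in AQA, 42 in DQD and 44 in F191G. Replicate B was the lowest on 39, 43, 42 and 32 members of these groups. In WT, replicate A was the lowest on 44 members and replicate B on 0. With the letter as a replicate block 14 members were called in WT against VEC (2.84% of all genes called lower), and 20 without the batch term (4.19%). The block gave 26 in DQD against WT (6.36% of all genes called higher). In F191G against WT it gave 1 (0.135%), and 6 without the batch term (1.89%).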
